A study of Mus musculus with 15 samples.

Results

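The comparison described here sets postnatal day 10 (P10) against postnatal day 3 (P3) in macrophages of the mouse dura mater, the outermost and toughest of the meninges. It comprised 6 of the 15 bulk RNA-seq libraries of the study, 3 at P10 and 3 at P3, and was chosen by age label alone. The P10 group and the P3 group both came from untreated C57BL/6J mice of genotype Cx3cr1GFP/wt, in which 1 Cx3cr1 allele carries the reporter GFP. Per the labels, the cells were CD206-positive dural macrophages. The other 9 libraries were of the same strain, genotype and cell type at an embryonic age (E14.5) and at P21 and P56. The labels place all libraries but those of P56 in 1 sequencing project, so the P10 and P3 libraries share theirs. According to the series text, each age was represented by 3 to 5 mice, and the labels do not tie a library to 1 animal. P-values therefore measure the spread between libraries, which may in part be technical.

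Dural macrophages sit along vessels and stroma of the membrane, take up debris and pathogens, and can present antigen to T cells that patrol the dura. They belong to the border-associated macrophages, which are set apart from the microglia of the brain by genes such as Mrc1, the gene for the sorted mannose receptor CD206, and by lectins, scavenger receptors and the carbonyl reductase Cbr2. In mice, such macrophages are seeded before birth, and in the weeks after birth the skull and meninges grow and part of the population gains MHC class II.

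Total counts per library were 19029049 to 30614583 at P10 and 17550170 to 30281520 at P3, and intervals from counts cover counting error only. Levels below are CPM, the library's counts scaled by TMM to a common total, in the order of replicates 1, 2 and 3 of each age, and a log2 change is P10 minus P3 with its standard error. The correlation of log2 CPM between libraries was 0.959 to 0.9625 within P10, 0.9588 to 0.9715 within P3 and 0.943 to 0.9616 between the ages. On the first principal component of these 6 libraries, which held 31.6% of the variance, the P10 libraries lay at 14.68 to 38.11. The P3 libraries lay at -38.65 to -21.85 on it, so this component separated the ages. On the second, which held 20.3%, P10 replicate 1 and P3 replicate 3 lay on one side and the other 4 libraries on the other. The second component thus did not separate the ages. The genes that define the sorted cells were high at both ages. Mrc1 had 1639.8, 2119 and 2409 CPM at P10, against 2306, 1842 and 2398 CPM at P3. Csf1r, which encodes the receptor for CSF1, had 3198, 3622 and 4402 CPM at P10, against 4522, 4114 and 4063 CPM at P3. Neither passed the test. Adgre1, the F4/80 gene, averaged 1419.8 CPM at P10 and 1545 CPM at P3, Ptprc, the CD45 gene, 160 CPM at P10 and 162 CPM at P3, and Cx3cr1 383 CPM at P10 and 418 CPM at P3, and none of these passed. The 95% intervals of their log2 changes ran from -0.65 to 0.48 for Mrc1, -0.73 to 0.37 for Csf1r, -0.41 to 0.17 for Adgre1, -0.34 to 0.31 for Ptprc and -0.56 to 0.31 for Cx3cr1.

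The Y-linked gene Ddx3y was at 46.8 CPM or above and Xist at 0.103 CPM or below in all 6 libraries. Markers of other cells were present at different levels, given here as summed CPM of the total count. Mast cell markers summed to 176 to 436 CPM at P10 and 645 to 1776 CPM at P3 and were lower in every P10 library. The proteases Cpa3, Cma1 and Tpsb2 led the sum, while Ms4a2 was at 0 in P10 replicates 1 and 2. Dendritic cell markers summed to 81.6 to 106 CPM at P10 and 48.7 to 55.2 CPM at P3 and were higher in every P10 library. Most of that sum came from Siglech, which microglia also express, and Zbtb46. Flt3 and Xcr1 were at most 1.48 CPM, and Clec9a and Itgae were too low to be tested. Monocyte markers summed to 991 to 1403 CPM at P10 and 789 to 961 CPM at P3, of which most was Nr4a1, an immediate early gene as well, while Ly6c2 was at 0 in all 3 P10 libraries. B cell markers summed to 128 to 159.8 CPM at P10 and 104 to 110.1 CPM at P3, mostly Cd79b, and Ms4a1 and Pax5 were too low to be tested. Sums of neutrophil (14.2 to 35.7 CPM at P10 and 24.2 to 243 CPM at P3), fibroblast (1105 to 3970 CPM at P10 and 736 to 3312 CPM at P3) and erythroid markers (58.5 to 186 CPM at P10 and 126 to 302 CPM at P3) overlapped between the ages, as did those of endothelial, mural, glial, neuronal, T and NK cell and bone markers. Of the 10 mast cell, 9 dendritic cell, 10 monocyte and 4 B cell markers tested, 0 passed by edgeR, and 1, 1, 0 and 0 by DESeq2. Of 12 neutrophil markers, the 6 tested all had negative log2 changes (median -3.39), and all 14 fibroblast markers had positive ones (median 0.91). By edgeR 0 of either passed. DESeq2 called 3 neutrophil markers lower and 1 fibroblast marker higher, and voom 1 and 1. DESeq2 also called 1 glial marker higher. The part of all these cell types in the results that follow was not tested, and in bulk RNA fewer cells of a type and less RNA per cell cannot be told apart.

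Between P10 and P3, genes for early response factors, MHC class II loading, chemokines and several border macrophage markers rose, and 2 genes of DNA replication were among 9 that fell. Of 14683 genes tested, 59 passed at an adjusted p under 0.05 (0.402%), 50 of them higher (0.341%) and 9 lower (0.0613%) at P10. Among these, 32 were at least 2-fold higher and 5 at least 2-fold lower. For all 59 the P10 and P3 libraries did not overlap, as was the case for 2812 of the tested genes (19.2%). The median log2 change of the tested genes was 0.01, and the 95% interval lay within 1 log2 unit on either side of 0 for 4495 of them (30.6%). For the remaining genes the interval reached beyond a 2-fold change in at least 1 direction. The median standard error was 0.17 among the called genes and 0.52 among those tested. The count of 59 became 38, 22 and 41 when P10 replicate 1, 2 or 3 was left out, and 24, 30 and 21 when P3 replicate 1, 2 or 3 was left out. Libraries without which a call was lost, each left out alone, are named beside each gene. DESeq2 called 437 genes, all 59 included, and a test for a log2 change beyond 1 left only Ccl8.

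**Figure D1:**
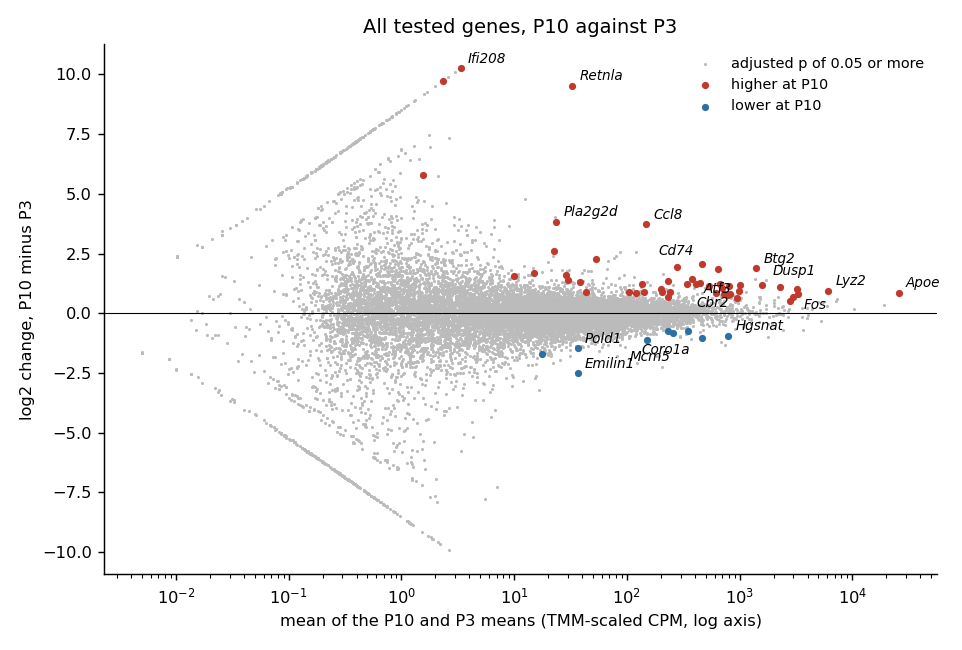
Log2 change (P10 minus P3) of the 14683 tested genes against the mean of the P10 and P3 levels in TMM-scaled CPM, on a log axis. The 50 genes higher at P10 (red) and 9 lower at P10 (blue) lie mostly to the right, with Apoe rightmost, and grey points are genes that did not pass.

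Immediate early genes, which cells switch on within minutes of a stimulus without new protein synthesis, gave the most calls of the 47 lists. Of 32 tested members, 8 rose and 0 fell, against 0.341% and 0.0613% of tested genes, and the median log2 change was 0.75, against 0.01 over tested genes. The P10 libraries lay wholly above those of P3 for 25 members and wholly below for 1, against 9.8% and 9.35% of tested genes. The summed level of the list was 25604 to 30822 CPM at P10 and 15299.5 to 17718 CPM at P3 as CPM of the total. Promoters of 7 of the 8 called members were found by symbol in RefSeq (GRCm38.p6), and Ier2 had no entry. The 250 bases before the start are shown for Dusp1 and Btg2, which hold the full cAMP response element TGACGTCA, for Fos, with its TGACG cores, and for Zfp36, with a CArG box, the core of the serum response element. All are written 5′ to 3′ on the strand of the gene, with these motifs and CCAAT boxes in capitals. Dusp1 lies at chr17:26508473-26508722 on the minus strand, Btg2 at chr1:134079156-134079405 on the minus strand, Fos at chr12:85473640-85473889 on the plus strand and Zfp36 at chr7:28379229-28379478 on the minus strand.
Dusp1: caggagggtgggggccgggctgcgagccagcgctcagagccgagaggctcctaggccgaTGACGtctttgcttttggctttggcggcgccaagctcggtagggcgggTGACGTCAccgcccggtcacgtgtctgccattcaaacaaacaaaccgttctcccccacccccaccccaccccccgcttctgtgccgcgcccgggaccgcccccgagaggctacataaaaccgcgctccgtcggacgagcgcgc
Btg2: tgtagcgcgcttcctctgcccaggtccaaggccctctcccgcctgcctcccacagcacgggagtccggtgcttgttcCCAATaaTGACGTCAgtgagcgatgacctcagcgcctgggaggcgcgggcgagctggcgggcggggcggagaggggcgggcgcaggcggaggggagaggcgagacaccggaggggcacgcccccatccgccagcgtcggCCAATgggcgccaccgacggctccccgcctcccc
Fos: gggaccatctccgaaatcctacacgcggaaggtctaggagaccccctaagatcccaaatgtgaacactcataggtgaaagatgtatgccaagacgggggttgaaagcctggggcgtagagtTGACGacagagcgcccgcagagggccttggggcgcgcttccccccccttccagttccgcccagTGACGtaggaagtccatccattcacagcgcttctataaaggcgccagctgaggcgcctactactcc
Zfp36: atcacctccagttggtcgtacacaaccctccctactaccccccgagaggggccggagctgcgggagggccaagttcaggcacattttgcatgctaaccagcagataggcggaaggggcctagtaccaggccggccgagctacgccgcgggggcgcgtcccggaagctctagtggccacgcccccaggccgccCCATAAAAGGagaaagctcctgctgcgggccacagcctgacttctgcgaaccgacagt

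The full element began 143 bases before the start of Dusp1 and 166 bases before that of Btg2, and TGACGTCA was found in 1.55% of 32851 RefSeq windows of this length. On either strand, TGACG, which each full element also contains, was found in 5 of the 7 matched genes (Atf3, Btg1, Btg2, Dusp1 and Fos) and in 17.8% of windows. The CArG box of Zfp36 began 58 bases before the start, and 1.47% of windows held one. CCAAT was found in Btg1, Btg2 and Klf6 and in 33.8% of windows, and the AP-1 motif TGANTCA in 0 of the 7 and in 6.75% of windows. Of the 27 tested list members with an entry (33 windows), called or not, 16 held TGACG and 4 the full element in at least 1 window. A CArG box was found in 3 of the 27, CCAAT in 11 and the AP-1 motif in 0. Bases outside the window were not searched, so a motif not found here may lie farther upstream. These matches describe letters in a window and say nothing of a factor's binding.

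Dusp1, a phosphatase that switches off MAP kinases, had the smallest p of any gene, with 1897, 2302 and 2302 CPM at P10, against 972, 912 and 1008 CPM at P3 (log2 change 1.17 ± 0.10, adjusted p = 0.000148). Its P10 libraries were all about 2-fold above the P3 libraries, which differed little among themselves. Btg2, an antiproliferative factor, had 1880.5, 2542 and 2191 CPM at P10, against 607, 706 and 478 CPM at P3 (log2 change 1.88 ± 0.19, adjusted p = 0.000393). P10 replicate 2 was the highest and P3 replicate 3 the lowest. Fos, the AP-1 subunit, had 3932, 4273 and 4698 CPM at P10, against 2204, 2215 and 1965 CPM at P3 (log2 change 1.02 ± 0.14, adjusted p = 0.0055), again with P3 replicate 3 lowest. These 3 calls held without each of the 6 libraries. Atf3, a stress-induced transcription factor of the ATF family, had 999, 938 and 1062 CPM at P10, against 316, 303 and 221 CPM at P3 (log2 change 1.84 ± 0.27, adjusted p = 0.00695). The ages stood well apart, and the call was lost in 1 of the 6 fits, without P3 replicate 3 (adjusted p = 0.0646).

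Ier2, a small nuclear early response protein, had 974, 1204 and 1159 CPM at P10, against 465, 597 and 429.9 CPM at P3 (log2 change 1.16 ± 0.20, adjusted p = 0.0168). Zfp36 encodes tristetraprolin, which destabilises cytokine mRNAs, and had 2537, 3494 and 3249 CPM at P10, against 1501, 1676 and 1135 CPM at P3 (log2 change 1.11 ± 0.20, adjusted p = 0.0292). P10 replicate 1 was the lowest P10 library for both, yet above every P3 library. Btg1, the relative of Btg2, had 179, 198 and 178 CPM at P10, against 94.5, 99.7 and 102 CPM at P3 (log2 change 0.91 ± 0.16, adjusted p = 0.029). Klf6, a zinc finger factor, had 1054, 1051 and 1360 CPM at P10, against 721, 807 and 698 CPM at P3 (log2 change 0.64 ± 0.12, adjusted p = 0.0292). Their libraries did not overlap either. These 4 calls did not hold in every fit that left out 1 library. Ier2 was lost without P10 replicate 2 or 3 or P3 replicate 1 or 3 (adjusted p up to 0.131), Zfp36 without any library but P10 replicate 1 (0.157), Klf6 without any library but P10 replicate 1 (0.167) and Btg1 without any 1 of the 6 libraries (0.168). The count of 8 became 4 without P10 replicate 2, P10 replicate 3 or P3 replicate 1, 5 without P3 replicate 2 and 3 without P3 replicate 3.

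Other AP-1 and early response genes did not pass by edgeR, while DESeq2 called 15 members of the list higher and voom 8. Jun had 1364, 1400.2 and 1644 CPM at P10, against 879, 714 and 767 CPM at P3 (log2 change 0.90 ± 0.20, adjusted p = 0.0832). Junb averaged 2702 CPM at P10 and 1662 CPM at P3 (log2 change 0.70 ± 0.19, adjusted p = 0.181). Ier3 averaged 1806 CPM at P10 and 1203 CPM at P3 (log2 change 0.59 ± 0.15, adjusted p = 0.145). The libraries did not overlap for these 3, nor for Egr1 (log2 change 0.44 ± 0.16, adjusted p = 0.373) or Nr4a1 (log2 change 0.56 ± 0.28, adjusted p = 0.527). Egr2, a zinc finger factor, had 117, 106 and 152 CPM at P10, against 98.6, 313 and 135 CPM at P3 (log2 change -0.55 ± 0.37, adjusted p = 0.697), with P3 replicate 2 far above the rest. Dusp6, a phosphatase specific for ERK, had 207, 198 and 255 CPM at P10, against 321, 269 and 286 CPM at P3 (log2 change -0.41 ± 0.28, adjusted p = 0.702), the 1 member that was lower in every P10 library. Of 14 heat shock genes, another list of fast-response genes, 0 rose and 0 fell, with a median of 0.18 (by edgeR, with 0 higher and 0 lower at an unadjusted p under 0.05, DESeq2 called 0 higher and 0 lower, and voom 0 and 0). Hspd1, a mitochondrial chaperone, averaged 106 CPM at P10 and 74.8 CPM at P3 (log2 change 0.50 ± 0.24, adjusted p = 0.502). Hsp90aa1 averaged 77.8 CPM at P10 and 60.2 CPM at P3 (log2 change 0.37 ± 0.19, adjusted p = 0.547). The 16 NF-kB feedback genes also held no call and had a median of 0.16 (by edgeR, with 3 higher and 0 lower at an unadjusted p under 0.05, DESeq2 called 1 higher and 0 lower, and voom 0 and 0). Nfkbia, the inhibitor of NF-kB, had 2210.3, 2469.7 and 2216 CPM at P10, against 1719, 1745 and 1676 CPM at P3 (log2 change 0.42 ± 0.10, adjusted p = 0.113).

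**Figure D2:**
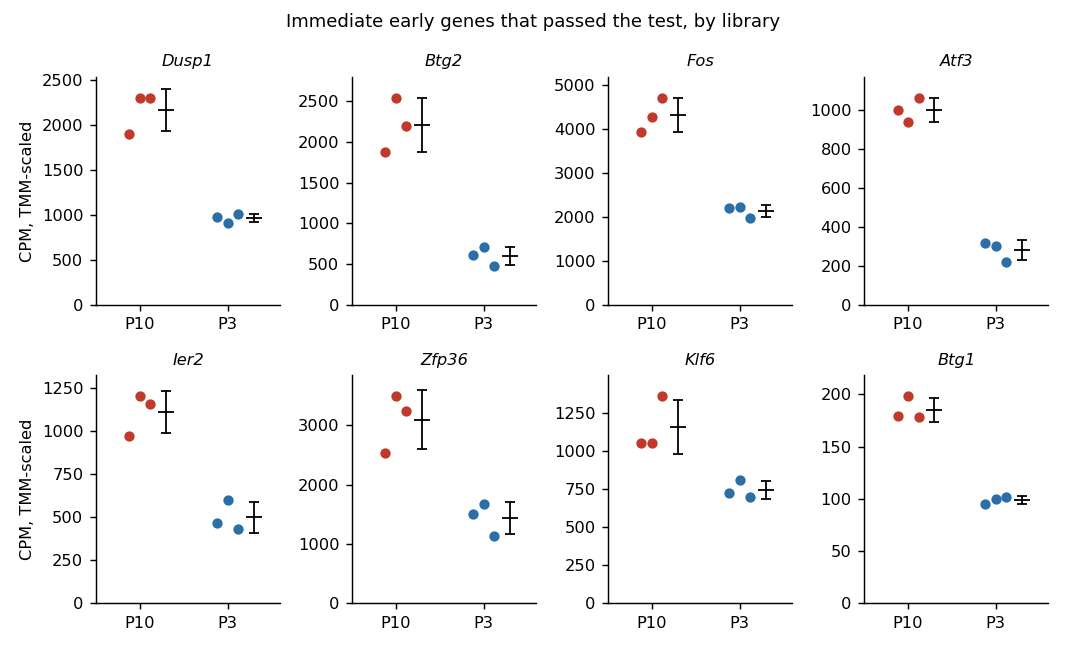
TMM-scaled CPM of the 8 immediate early genes that passed, for each P10 library (red, left) and P3 library (blue, right), with the mean and SD of 3 libraries as black bars; the axes start at 0. In each panel the lowest P10 library is above the highest P3 library.

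The invariant chain and a gene for each chain of the peptide loading factor of MHC class II rose. Of 14 tested members, 3 rose and 0 fell, the median log2 change was 0.57, and 8 members were wholly higher and 0 wholly lower at P10. Over all tested genes 0.341% rose, 0.0613% fell, 9.8% were wholly higher and 9.35% wholly lower. Cd74, the invariant chain that guides class II molecules to the endosome, had 927, 879 and 435 CPM at P10, against 211, 200.4 and 129 CPM at P3 (log2 change 2.05 ± 0.25, adjusted p = 0.00255). P10 replicate 3 was below the other P10 libraries by about 2-fold but above every P3 library. H2-DMa, a chain of the H2-DM exchange factor that helps peptides bind, had 48.1, 62.8 and 54.7 CPM at P10, against 22.1, 26.4 and 17.8 CPM at P3 (log2 change 1.32 ± 0.19, adjusted p = 0.00602). H2-DMb1, a gene for its partner chain, had 45.7, 51.1 and 32.6 CPM at P10, against 11.4, 20 and 11.8 CPM at P3 (log2 change 1.58 ± 0.24, adjusted p = 0.00809). P10 replicate 3 was the lowest P10 library there too. H2-DMb2, another gene for the partner chain, averaged 2.14 CPM at P10 and 5.12 CPM at P3 (log2 change -1.26 ± 0.85, adjusted p = 0.699). The Cd74 and H2-DMa calls held without each library, while H2-DMb1 was lost without P10 replicate 2 or P3 replicate 1 or 3 (adjusted p up to 0.0688). In a fit of the 6 libraries alone the H2-DMa and H2-DMb1 calls were lost, and that of H2-DMa also with voom.

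The window before H2-DMb1 is shown because most class II members with a promoter entry also hold its CCAAT box. It lies at chr17:34152941-34153190 (GRCm38.p6, RefSeq) on the plus strand, with CCAAT on the other strand and TGATTCA, a match to the AP-1 motif, in capitals.
H2-DMb1: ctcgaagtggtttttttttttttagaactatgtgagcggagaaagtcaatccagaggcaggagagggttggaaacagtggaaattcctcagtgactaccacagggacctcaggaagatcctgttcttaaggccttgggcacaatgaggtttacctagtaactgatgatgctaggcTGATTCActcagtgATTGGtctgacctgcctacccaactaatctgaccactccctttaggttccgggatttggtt

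CCAAT on either strand was found in 9 of the 10 tested class II genes with an entry, against 33.8% of windows, and TGANTCA in 3 of them, against 6.75%. These 10 genes have 11 windows, and a gene was counted if any of its windows held the motif. H2-DMa held both motifs in its window at chr17:34125268-34125517 and none of those searched at chr17:34122582-34122831. Cd74 was not matched. The match is a description of these letters alone.

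The antigen-binding chains themselves did not pass by edgeR, though their fitted changes were larger. DESeq2 called 7 members of the class II list higher and voom 2. H2-Aa had 214, 163 and 65 CPM at P10, against 39.5, 22 and 12.3 CPM at P3 (log2 change 2.58 ± 0.65, adjusted p = 0.138). H2-Ab1 had 278, 255 and 90.9 CPM at P10, against 51.5, 42.6 and 11.4 CPM at P3 (log2 change 2.56 ± 0.59, adjusted p = 0.0975). H2-Eb1 had 200, 152 and 50.1 CPM at P10, against 42.8, 27.9 and 4.52 CPM at P3 (log2 change 2.41 ± 0.77, adjusted p = 0.269). For each, P10 replicate 3 and P3 replicate 3 were the lowest of their age, and the ages did not overlap. Ciita, the master activator of class II transcription, was at 0 in P10 replicate 2 and P3 replicates 1 and 3 and at most 3.15 CPM elsewhere (log2 change -1.23 ± 1.63, adjusted p = 0.914). Ctss, the protease that trims the invariant chain, averaged 1854 CPM at P10 and 1149 CPM at P3 (log2 change 0.69 ± 0.16, adjusted p = 0.0953). MHC class I genes gave 0 rises and 0 falls among 17 members, with a median of 0.00 (by edgeR, with 1 higher and 2 lower at an unadjusted p under 0.05, DESeq2 called 0 higher and 1 lower, and voom 0 and 0). Tap1, a peptide transporter, averaged 56.4 CPM at P10 and 92.7 CPM at P3 (log2 change -0.72 ± 0.20, adjusted p = 0.192). MHC genes share reads with near-identical copies, so the value of each is uncertain. Dendritic cell and monocyte marker sums were higher at P10 beside these genes, as given above, the monocyte sum mostly through Nr4a1. The monocyte list had a median log2 change of -0.48, with 5 positive and 5 negative changes. The part of these cells in the result was not tested.

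Among border-associated macrophage markers some rose, and others were lower in every P10 library without passing the test. Of 25 members, 6 rose and 0 fell, with a median log2 change of 0.21, and the libraries did not overlap for 10 higher and 7 lower members, against 0.341% and 0.0613% called and 9.8% and 9.35% without overlap over all tested genes. The largest rise among them was in Ccl8, a chemokine that attracts monocytes and other leukocytes, with 193, 375 and 262 CPM at P10, against 11.1, 31.6 and 19.7 CPM at P3 (log2 change 3.74 ± 0.40, adjusted p = 0.000782). The lowest P10 library was about 6-fold above the highest P3 library. Cbr2 had 1256, 1399 and 1546 CPM at P10, against 703, 539 and 626 CPM at P3 (log2 change 1.17 ± 0.12, adjusted p = 0.000393). P10 replicate 3 was the highest. Mgl2, the lectin CD301b, had 296, 255 and 251 CPM at P10, against 128, 117 and 153 CPM at P3 (log2 change 1.01 ± 0.14, adjusted p = 0.0055). The calls of Ccl8, Cbr2 and Mgl2 held without each library.

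Clec12a, an inhibitory receptor for uric acid crystals, had 394, 322 and 275 CPM at P10, against 138, 159.6 and 92.5 CPM at P3 (log2 change 1.35 ± 0.22, adjusted p = 0.0145). Clec10a, the lectin CD301a, had 279, 333 and 335 CPM at P10, against 187, 179.8 and 146 CPM at P3 (log2 change 0.88 ± 0.16, adjusted p = 0.0314). Apoe, a lipid carrier, had 31159.8, 36202 and 32722 CPM at P10, against 20037, 17829.7 and 16891 CPM at P3 (log2 change 0.87 ± 0.17, adjusted p = 0.0449). All 3 rose with no overlap between ages. Clec12a was lost without P10 replicate 1 or 2 or P3 replicate 1 or 3 (adjusted p up to 0.0801), Clec10a without any library but P10 replicate 1 (0.171) and Apoe without any 1 of the 6 libraries (0.192). The count of 6 became 3 without P10 replicate 2, P3 replicate 1 or P3 replicate 3, and 11 in a fit of the 6 libraries alone.

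The 7 markers that were lower in every P10 library were mostly endocytic and scavenger receptors, and 0 passed by edgeR, while DESeq2 called 4 markers lower and voom 1. Lyve1, the hyaluronan receptor, had 371, 449 and 421 CPM at P10, against 1188, 696 and 937 CPM at P3 (log2 change -1.18 ± 0.35, adjusted p = 0.222). Cd163, the receptor for hemoglobin bound to haptoglobin, had 307, 384 and 398 CPM at P10, against 622, 558 and 592 CPM at P3 (log2 change -0.70 ± 0.32, adjusted p = 0.496). P10 values of both lay close together, while P3 replicate 1 was the highest for each. Dab2, an endocytic adaptor, came nearest to the threshold with 2479, 2662 and 3214 CPM at P10, against 4869, 4344 and 4254 CPM at P3 (log2 change -0.69 ± 0.14, adjusted p = 0.0573). F13a1, the coagulation factor XIII transglutaminase, had 1715, 1673 and 2109 CPM at P10, against 3148, 3084 and 2818 CPM at P3 (log2 change -0.72 ± 0.19, adjusted p = 0.157). Colec12, a scavenger receptor, had 195, 197 and 212 CPM at P10, against 429.9, 369 and 377 CPM at P3 (log2 change -0.96 ± 0.25, adjusted p = 0.144). Stab1 and Siglec1, a scavenger receptor and a sialic acid-binding lectin, had log2 changes of -0.48 ± 0.30 and -0.89 ± 0.37. The wider list of 18 scavenger and phagocytic receptor genes held 0 rises and 0 falls, with a median of -0.22 and 5 members wholly lower at P10 (by edgeR, with 0 higher and 3 lower at an unadjusted p under 0.05, DESeq2 called 0 higher and 1 lower, and voom 0 and 0). Over all tested genes 9.35% were wholly lower. The Cd209 lectins share reads within their family, and Cd209f averaged 467 CPM at P10 and 292 CPM at P3 (log2 change 0.68 ± 0.35, adjusted p = 0.562).

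**Figure D3:**
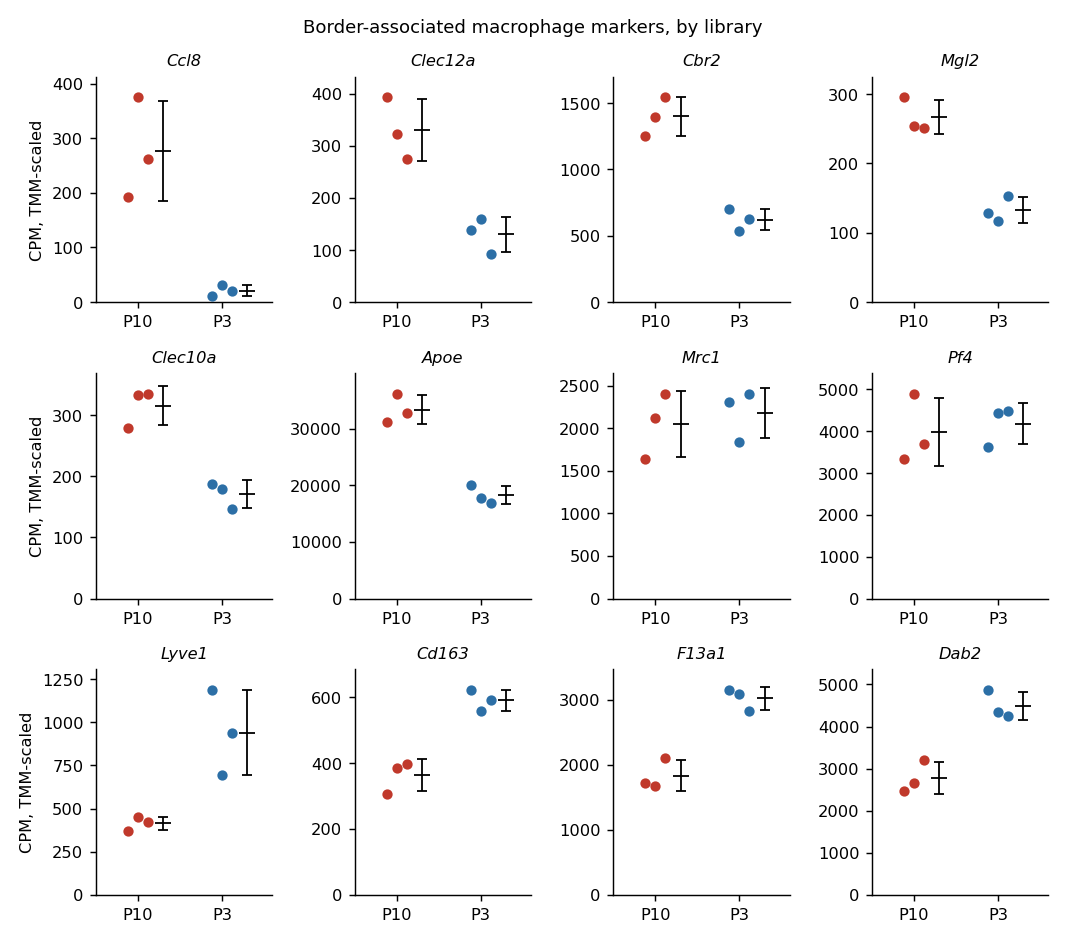
TMM-scaled CPM of 12 border-associated macrophage markers in each P10 library (red, left) and P3 library (blue, right), with the mean and SD of 3 libraries as black bars. The 6 genes of the first panels up to Apoe rose, Mrc1 and Pf4 overlapped between ages, and Lyve1, Cd163, F13a1 and Dab2 were lower in every P10 library without passing the test.

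Among secreted signals, Cxcl16 and Il1b rose beside Ccl8. Of 23 CC and CXC chemokine genes, 2 rose and 0 fell, with a median of 0.64. Over all tested genes 0.341% rose and 0.0613% fell. Cxcl16, a membrane-bound ligand of CXCR6, had 186, 209 and 173 CPM at P10, against 65.3, 79.1 and 96.6 CPM at P3 (log2 change 1.24 ± 0.18, adjusted p = 0.00661). Il1b, the inflammatory interleukin-1 beta, had 857, 1034 and 941 CPM at P10, against 443, 448 and 468 CPM at P3 (log2 change 1.06 ± 0.15, adjusted p = 0.0055). Both calls held without each library. Il1b was the 1 call among 23 cytokine and growth factor genes, whose median was 0.62. Tslp, an alarmin cytokine best known from epithelia, had 67.7, 103 and 92.2 CPM at P10, against 12.7, 28.7 and 13.3 CPM at P3 (log2 change 2.26 ± 0.40, adjusted p = 0.0237) and was lost without P10 replicate 2 or 3 or P3 replicate 1 or 3 (adjusted p up to 0.162). Ccrl2, an atypical receptor that binds chemerin, had 407, 433 and 481 CPM at P10, against 111, 144 and 88.9 CPM at P3 (log2 change 1.94 ± 0.32, adjusted p = 0.0159) and was lost without P10 replicate 2 or 3 or P3 replicate 1 or 3 (adjusted p up to 0.131). It was the 1 call of 9 chemokine receptor genes. Several other chemokines were higher in every P10 library without passing, among them Ccl12 (log2 change 0.84 ± 0.18, adjusted p = 0.0646), Cxcl2 (log2 change 0.78 ± 0.18, adjusted p = 0.103) and Ccl2 (log2 change 0.66 ± 0.27, adjusted p = 0.439), the last with 1139, 1497 and 1146 CPM at P10, against 592, 1065 and 739.7 CPM at P3. Pf4, a chemokine first known from platelets, overlapped between ages with 3342, 4901 and 3691 CPM at P10, against 3615, 4447 and 4475 CPM at P3 (log2 change -0.07 ± 0.15, adjusted p = 0.959).

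Among general macrophage genes, 3 rose while the lineage receptors named above did not pass. Of 21 core macrophage genes the median log2 change was 0.24 and 0 fell. Over all tested genes 0.341% rose and 0.0613% fell. Lyz2, lysozyme, had 6455, 9702 and 7932 CPM at P10, against 4881, 3579 and 4004 CPM at P3 (log2 change 0.95 ± 0.16, adjusted p = 0.0159). Aif1, the IBA1 protein, had 951, 1174 and 836 CPM at P10, against 546, 594 and 615 CPM at P3 (log2 change 0.75 ± 0.15, adjusted p = 0.0449). C1qa, a chain of complement C1q, had 2888, 3589.8 and 3384 CPM at P10, against 2349, 2374 and 2199 CPM at P3 (log2 change 0.51 ± 0.10, adjusted p = 0.0499). Their P10 values were spread more widely than their P3 values, with P10 replicate 2 highest for each. Lyz2 was lost without P10 replicate 2 or 3 or P3 replicate 2 or 3 (adjusted p up to 0.128), Aif1 without any library but P10 replicate 3 (0.211) and C1qa without any library but P10 replicate 1 (0.243). The count of 3 became 0 without P10 replicate 2, P3 replicate 2 or P3 replicate 3. It became 1 without P10 replicate 3 or P3 replicate 1, and 1 with RLE scaling or the 6 libraries alone. Cd14, the co-receptor for lipopolysaccharide, missed the threshold with 1935, 2036 and 2047 CPM at P10, against 878, 784 and 586 CPM at P3 (log2 change 1.42 ± 0.30, adjusted p = 0.0646). Id2, an inhibitor of helix-loop-helix factors, was the 1 call among 21 macrophage transcription factors, with 435, 639.5 and 579 CPM at P10, against 187, 216 and 210.4 CPM at P3 (log2 change 1.43 ± 0.26, adjusted p = 0.0286), and it was lost without any library but P10 replicate 1 (adjusted p up to 0.167).

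Lysosomal and lipid genes rose in part. Of 24 lysosome genes, 2 rose and 0 fell, against 0.341% and 0.0613% of tested genes, with a median of 0.15. Ctsh, the aminopeptidase cathepsin H, had 852, 1082 and 838 CPM at P10, against 507, 523 and 533 CPM at P3 (log2 change 0.83 ± 0.13, adjusted p = 0.00991). Ctsh was lost without P10 replicate 2 or P3 replicate 1, 2 or 3 (adjusted p up to 0.078). Of 19 cholesterol and lipid handling genes, Apoe and Pltp rose and 0 fell, with a median of -0.17. Pltp, the phospholipid transfer protein, had 632, 574 and 691 CPM at P10, against 276, 276 and 233 CPM at P3 (log2 change 1.27 ± 0.12, adjusted p = 0.000283), with little spread within either age, and held without each library. Pla2g2d, a secreted phospholipase A2, had 44.2, 27.5 and 60.1 CPM at P10, against 3.7, 1.45 and 3.93 CPM at P3 (log2 change 3.84 ± 0.77, adjusted p = 0.0499), and its call was lost without any 1 of the 6 libraries (adjusted p up to 0.228). Among the remaining large rises, Slc25a33, a mitochondrial pyrimidine nucleotide carrier, had 23.9, 48.8 and 44.3 CPM at P10, against 6.78, 8.68 and 3.85 CPM at P3 (log2 change 2.60 ± 0.41, adjusted p = 0.0124). Slamf9, a SLAM family receptor, had 49.3, 35.6 and 46.8 CPM at P10, against 14, 19.5 and 16.6 CPM at P3 (log2 change 1.39 ± 0.27, adjusted p = 0.0458). Bcl2a1b, an anti-apoptotic BCL2 relative with near-identical copies, had 19.3, 29.2 and 19.7 CPM at P10, against 6.47, 7.44 and 7.49 CPM at P3 (log2 change 1.67 ± 0.32, adjusted p = 0.0408). Slc25a33 was lost without P10 replicate 2 or P3 replicate 1 or 3 (adjusted p up to 0.0853), Slamf9 without any 1 of the 6 libraries (0.217) and Bcl2a1b without any 1 of the 6 libraries (0.203).

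The called genes also held 17 that the naming rule left out, and those given here were chosen after their values were seen. Tmem176a and Tmem176b, neighbouring genes for ion channel-like membrane proteins, both rose. Tmem176a had 437, 493 and 499 CPM at P10, against 164, 254 and 191 CPM at P3 (log2 change 1.23 ± 0.16, adjusted p = 0.00367). Tmem176b had 1225, 1369 and 1291 CPM at P10, against 616, 707 and 724 CPM at P3 (log2 change 0.92 ± 0.12, adjusted p = 0.0055). Rgs2, a brake on G protein signalling, had 674, 785 and 735 CPM at P10, against 329, 358 and 297 CPM at P3 (log2 change 1.16 ± 0.16, adjusted p = 0.0055). These 3 calls held without each library. Lipid mediator genes were among the 17. Pla2g7, the platelet-activating factor acetylhydrolase, had 922, 957 and 935 CPM at P10, against 364, 348 and 473 CPM at P3 (log2 change 1.25 ± 0.21, adjusted p = 0.0168). Hpgd, which breaks down prostaglandins, had 968, 1099.6 and 1091 CPM at P10, against 521, 705 and 574 CPM at P3 (log2 change 0.81 ± 0.12, adjusted p = 0.00661). Ltc4s, leukotriene C4 synthase, had 120.3, 147 and 138 CPM at P10, against 67.1, 75.8 and 77 CPM at P3 (log2 change 0.88 ± 0.14, adjusted p = 0.0131). All 3 rose with no overlap. Pla2g7 was lost without any library but P3 replicate 3 (adjusted p up to 0.129), Hpgd without P3 replicate 3 (0.0574) and Ltc4s without any library but P10 replicate 1 (0.112). Cst3, the cysteine protease inhibitor cystatin C, averaged 4189.5 ± 332 CPM at P10 and 2374 ± 141 CPM at P3 (log2 change 0.82 ± 0.12, adjusted p = 0.00661) and was lost without P3 replicate 3 (adjusted p up to 0.053). Trf, transferrin, averaged 3651 ± 309 CPM at P10 and 2307 ± 34.8 CPM at P3 (log2 change 0.66 ± 0.13, adjusted p = 0.0456) and was lost without any 1 of the 6 libraries (adjusted p up to 0.204). Ighm, the immunoglobulin mu chain, had 575, 559 and 586 CPM at P10, against 213, 336 and 178 CPM at P3 (log2 change 1.24 ± 0.20, adjusted p = 0.0124) and was lost without P10 replicate 2 or P3 replicate 1 or 3 (adjusted p up to 0.0967). The summed B cell markers given above were also higher at P10, while Cd79b averaged 106 CPM at P10 and 76.4 CPM at P3, and their part in the Ighm result was not tested.

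A few genes were close to absent at P3. Retnla, a secreted resistin-like protein induced by interleukin-4, had 63.5, 9.07 and 124 CPM at P10, against 0.0301, 0.258 and 0 CPM at P3 (log2 change 9.54 ± 1.86, adjusted p = 0.0458). The P10 libraries differed among themselves by more than 10-fold, with replicate 2 lowest. Summed over libraries it had 4703 counts at P10 and 6 at P3, a ratio of 805 for the same total (95% counting interval 369 to 2190), and the call was lost without any 1 of the 6 libraries (adjusted p up to 0.238). Ifi208, an interferon-inducible gene of a family with near-identical copies, had 6.33, 7 and 6.82 CPM at P10, against 0, 0 and 0 CPM at P3, from 496 counts at P10 and 0 at P3. Set against a floor of 3 counts over the P3 group, that is at least 170-fold higher, and the call (adjusted p = 0.0314) was lost without any 1 of the 6 libraries (adjusted p up to 0.138). Tcim had 2.92, 1.62 and 4.58 CPM at P10, against 0.0903, 0.0517 and 0 CPM at P3, from 221 counts at P10 and 4 at P3. That is a ratio of 56.7 (95% counting interval 21.8 to 210), and the call held without each library (adjusted p = 0.0055). The Tcim call was lost in a fit of the 6 libraries alone and with the replicate number as a block in 12 libraries. With Retnla, 3 of 15 alternative activation genes rose and 0 fell, the others being Mgl2 and Clec10a, with a median of 0.64. Over all tested genes 0.341% rose and 0.0613% fell. Il4ra, the interleukin-4 receptor chain, was lower in every P10 library without passing, with 181, 214 and 217 CPM at P10, against 301, 317 and 263 CPM at P3 (log2 change -0.53 ± 0.16, adjusted p = 0.254).

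The 9 genes that fell were of mixed function. Hgsnat, the lysosomal acetyltransferase of heparan sulfate breakdown, had 475, 605 and 547 CPM at P10, against 1169, 987 and 975 CPM at P3 (log2 change -0.94 ± 0.13, adjusted p = 0.0055), and it was the 1 fall that held without each library. Of 16 heparan sulfate and glycosaminoglycan breakdown genes, 1 rose and Hgsnat fell, against 0.341% and 0.0613% of tested genes, with a median of -0.17. Slc48a1, a heme transporter of the endolysosome, had 181, 171 and 199 CPM at P10, against 313, 293 and 375 CPM at P3 (log2 change -0.83 ± 0.14, adjusted p = 0.0196) and was the 1 call among 14 heme and iron genes. Coro1a, the actin-binding coronin 1A of leukocytes, had 290.2, 314 and 321 CPM at P10, against 627, 595 and 657 CPM at P3 (log2 change -1.02 ± 0.20, adjusted p = 0.0488). The P10 libraries of both lay close together below those of P3. Emilin1, an extracellular matrix glycoprotein, had 11, 4.26 and 18 CPM at P10, against 41.9, 70.1 and 75.3 CPM at P3 (log2 change -2.50 ± 0.46, adjusted p = 0.0354). Mllt1, a chromatin reader of the super elongation complex, had 9.95, 7.9 and 6.87 CPM at P10, against 18, 30.5 and 33.1 CPM at P3 (log2 change -1.72 ± 0.33, adjusted p = 0.0455). P3 replicate 1 was the lowest P3 library for these 2. Ap2a2, a clathrin adaptor subunit, averaged 259 ± 30.5 CPM at P10 and 435 ± 59.3 CPM at P3 (log2 change -0.75 ± 0.15, adjusted p = 0.0499). Scamp5, a secretory carrier membrane protein, averaged 173 ± 37 CPM at P10 and 290.4 ± 13.2 CPM at P3 (log2 change -0.75 ± 0.15, adjusted p = 0.0499). Slc48a1 was lost without P10 replicate 1 or 2 or P3 replicate 1 or 3 (adjusted p up to 0.136), Coro1a without any 1 of the 6 libraries (0.192), Emilin1 without any library but P10 replicate 3 (0.142), Mllt1 without any library but P3 replicate 1 (0.204), Ap2a2 without any 1 of the 6 libraries (0.241) and Scamp5 without any library but P10 replicate 3 (0.204). The summed mast cell markers given above were lower at P10 beside these falls, and their part in them was not tested.

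DNA replication genes held the other 2 falls. Mcm5, a subunit of the replicative helicase, had 117, 85.9 and 86 CPM at P10, against 221, 204 and 195 CPM at P3 (log2 change -1.10 ± 0.17, adjusted p = 0.00809). Pold1, the catalytic subunit of DNA polymerase delta, had 18.9, 19.8 and 19.3 CPM at P10, against 59.7, 54.5 and 46.9 CPM at P3 (log2 change -1.47 ± 0.28, adjusted p = 0.0449), with very little spread among the P10 libraries. Of 32 members, 0 rose and 2 fell, the median log2 change was -0.69, 31 changes were negative, and 22 members were wholly lower and 0 wholly higher at P10. Of all tested genes, 0.0613% fell and 9.35% were wholly lower. Their summed level was 1494 to 1860.4 CPM at P10 and 2876 to 3038 CPM at P3 as CPM of the total. Uncalled members included Rrm2, a ribonucleotide reductase subunit, with 49.1, 37.2 and 61 CPM at P10, against 112, 121 and 139 CPM at P3 (log2 change -1.33 ± 0.33, adjusted p = 0.137), while Pcna, the sliding clamp, overlapped with 65.3, 75.5 and 70.1 CPM at P10, against 59.5, 78.8 and 75 CPM at P3 (log2 change -0.02 ± 0.21, adjusted p = 0.993). Mcm5 was lost without P10 replicate 2 or P3 replicate 1 (adjusted p up to 0.062) and Pold1 without any 1 of the 6 libraries (0.192). The count of 2 thus became 0 without P10 replicate 2 or P3 replicate 1 and 1 without any of the other 4 libraries. Mitosis genes gave 0 rises and 0 falls among 24 members, with a median of -0.69 and 24 negative changes on the TMM scale (by edgeR, with 0 higher and 5 lower at an unadjusted p under 0.05, DESeq2 called 0 higher and 1 lower, and voom 0 and 0). Of the mitosis genes, 14 were wholly lower and 0 wholly higher at P10, against 9.35% of tested genes wholly lower. They summed to 1183 to 1360 CPM at P10 and 1938 to 2278 CPM at P3 as CPM of the total. Aurkb, a mitotic kinase, averaged 32.7 ± 0.879 CPM at P10 and 75.4 ± 23.2 CPM at P3 (log2 change -1.20 ± 0.27, adjusted p = 0.09). Mki67, the Ki-67 proliferation marker, had 16.2, 22.1 and 21.4 CPM at P10, against 29.4, 29.3 and 36.3 CPM at P3 (log2 change -0.67 ± 0.88, adjusted p = 0.912), also with no overlap. Btg1 and Btg2, described above, were the 2 rises among 12 cell cycle inhibitor genes, against 0.341% of tested genes.

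**Figure D4:**
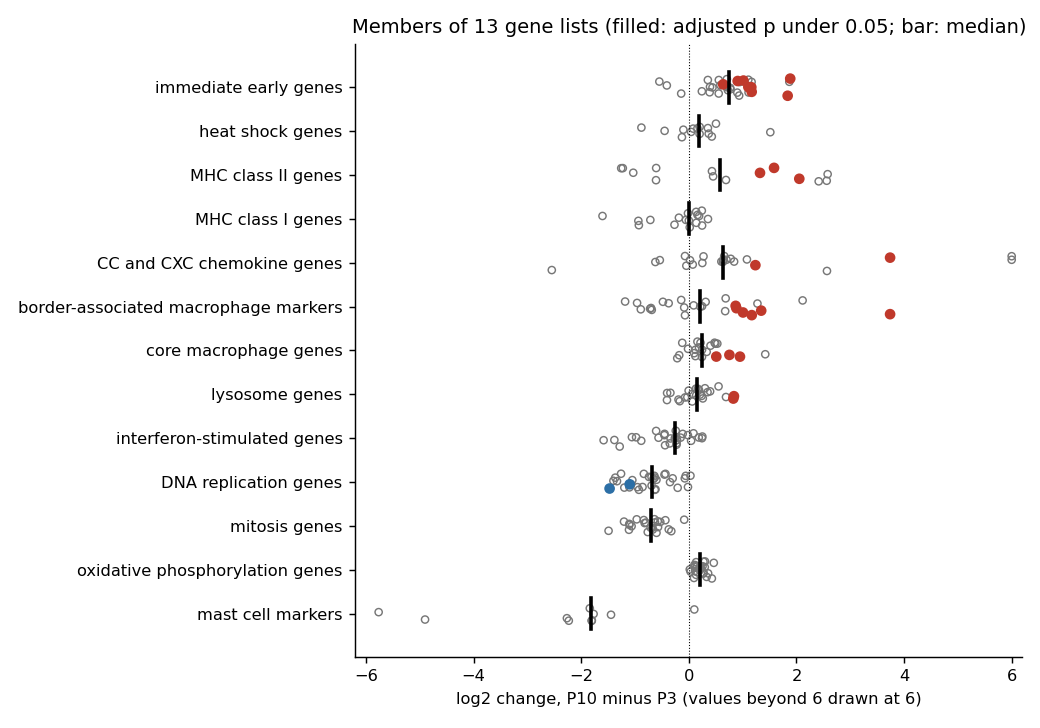
Log2 change (P10 minus P3) of each tested member of 13 gene lists, with filled red points for genes that rose, filled blue points for genes that fell, open points for genes that did not pass and a black bar at the list median; values beyond 6 are drawn at 6. The immediate early list has 8 filled points and a median of 0.75, and the DNA replication list has 2 filled points and a median of -0.69.

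Several pathways gave no call by edgeR at this depth. Of 28 interferon-stimulated genes, 0 rose and 0 fell, with a median of -0.25 (by edgeR, with 0 higher and 7 lower at an unadjusted p under 0.05, DESeq2 called 0 higher and 4 lower, and voom 0 and 0). An unadjusted p under 0.05 with a higher level at P10 was found for 5.17% of tested genes, and with a lower level for 4.84%. Irf7, the factor that amplifies type I interferon, had 35.5, 38.5 and 34 CPM at P10, against 117, 89.4 and 56.8 CPM at P3 (log2 change -1.28 ± 0.31, adjusted p = 0.118). Oas2, an antiviral enzyme, averaged 13.7 ± 3.41 CPM at P10 and 35.8 ± 5.25 CPM at P3 (log2 change -1.38 ± 0.36, adjusted p = 0.155). Both were lower in every P10 library, as were 9 members in all, against 9.35% of tested genes. Ifi208, given above, and Ifi27 have interferon-inducible names but are not on this list, and both rose. Ifi27 had 167, 152 and 142 CPM at P10, against 90.6, 75.5 and 92.1 CPM at P3 (log2 change 0.84 ± 0.13, adjusted p = 0.00991). Its call was lost without P10 replicate 1 or 2 or P3 replicate 2 (adjusted p up to 0.0699). The 26 oxidative phosphorylation genes all had positive log2 changes on the TMM scale, the median was 0.21, and 0 passed (by edgeR, with 2 higher and 0 lower at an unadjusted p under 0.05, DESeq2 called 0 higher and 0 lower, and voom 0 and 0). Ndufb3, a subunit of respiratory complex I, averaged 120.1 CPM at P10 and 87.1 CPM at P3 (log2 change 0.46 ± 0.20, adjusted p = 0.463). Glycolysis genes held 0 rises and 0 falls among 16 and a median of -0.22 (by edgeR, with 0 higher and 2 lower at an unadjusted p under 0.05, DESeq2 called 0 higher and 1 lower, and voom 0 and 0). Pkm, pyruvate kinase, had 284, 236 and 247 CPM at P10, against 353, 350.1 and 354 CPM at P3 (log2 change -0.46 ± 0.14, adjusted p = 0.222). The 14 Toll-like receptor genes had 0 calls and a median of -0.49 (by edgeR, with 2 higher and 1 lower at an unadjusted p under 0.05, DESeq2 called 1 higher and 0 lower, and voom 0 and 0). The 13 oncofetal growth genes had 0 calls and a median of -0.48 (by edgeR, with 0 higher and 2 lower at an unadjusted p under 0.05, DESeq2 called 0 higher and 2 lower, and voom 0 and 0). The 13 microglia markers had a median of 0.30. Siglech, 1 of them, averaged 48 ± 15.9 CPM at P10 and 13.8 ± 7.97 CPM at P3 (log2 change 1.80 ± 0.42, adjusted p = 0.107).

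Levels at the other ages place these values in the study's time course, as means ± SD of 3 libraries. P56 belongs to another sequencing project than the other ages, so age and project cannot be told apart there. Cbr2 had 19.3 ± 0.796 CPM at E14.5, 622 ± 82.3 CPM at P3, 1400.1 ± 145 CPM at P10, 3018 ± 238 CPM at P21 and 2769.6 ± 163 CPM at P56. Cd74 had 53.5 ± 2.47 CPM at E14.5, 180 ± 44.5 CPM at P3, 747 ± 271 CPM at P10, 4219 ± 588 CPM at P21 and 15253 ± 1446 CPM at P56. Ccl8 had 1.47 ± 0.608 CPM at E14.5, 20.8 ± 10.3 CPM at P3, 277 ± 92.1 CPM at P10, 456 ± 35.8 CPM at P21 and 1247 ± 459 CPM at P56. For these 3 genes the mean at P10 lay between those of P3 and P21. Btg2 had 898 ± 22.3 CPM at E14.5, 597 ± 114 CPM at P3, 2204 ± 331 CPM at P10, 4766 ± 700.1 CPM at P21 and 3906 ± 907 CPM at P56, so that P3 had the lowest mean of the 5 ages. Rgs2 had 214 ± 17.8 CPM at E14.5, 328 ± 30.3 CPM at P3, 732 ± 55.6 CPM at P10, 435 ± 116 CPM at P21 and 718 ± 55.6 CPM at P56, with a mean at P10 above both of its neighbours. Retnla had 0.122 ± 0.108 CPM at E14.5, 0.0962 ± 0.141 CPM at P3, 65.5 ± 57.4 CPM at P10, 41.1 ± 57.5 CPM at P21 and 17.1 ± 14.1 CPM at P56, and its SD was close to or above its mean at several ages. Among the genes that fell, Hgsnat had 549 ± 50.7 CPM at E14.5, 1044 ± 109 CPM at P3, 542 ± 64.9 CPM at P10, 242 ± 24.1 CPM at P21 and 224 ± 20.5 CPM at P56, with its highest mean at P3. Mcm5 had 357 ± 12.9 CPM at E14.5, 207 ± 13.2 CPM at P3, 96.5 ± 18.2 CPM at P10, 92.3 ± 18.6 CPM at P21 and 39.1 ± 4.94 CPM at P56, and its means at P10 and P21 differed by less than their SD.

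**Figure D5:**
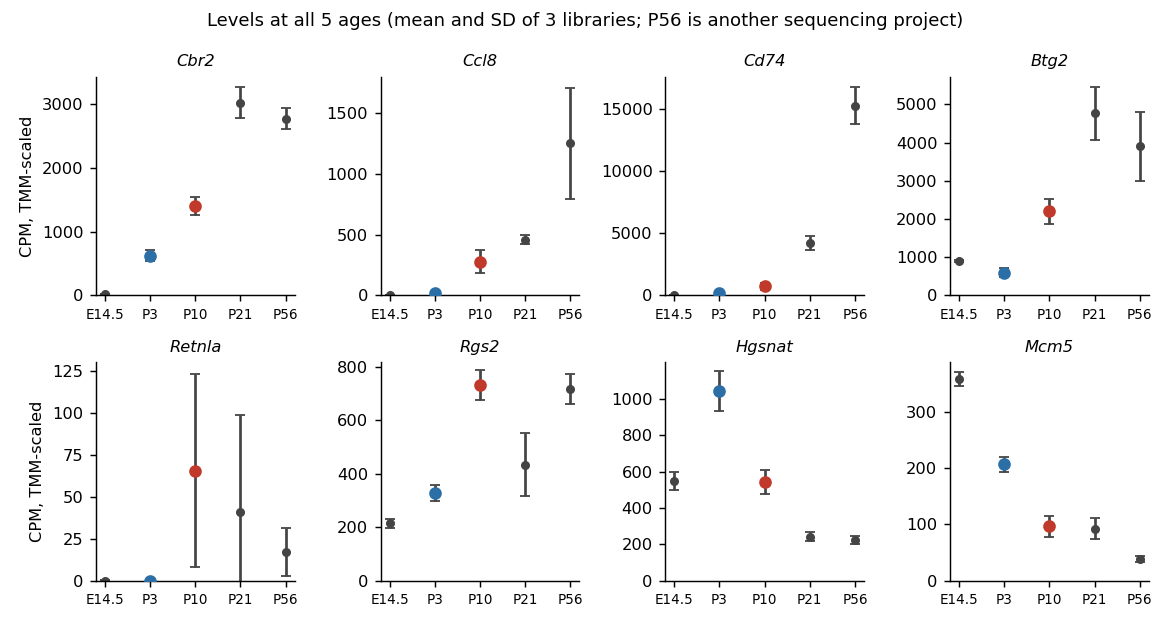
Mean TMM-scaled CPM (points) and SD of 3 libraries (bars) of 8 called genes at E14.5, P3 (blue), P10 (red), P21 and P56; the part of a bar below 0 is cut off. Cbr2, Ccl8 and Cd74 have P10 means between those of P3 and P21, while Hgsnat is highest at P3.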

How the data were processed

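The authors deposited unnormalized counts of reads for each gene symbol. Tools named in the submitters' processing notes are featureCounts 2.0.2, STAR 2.7.8a and bcl2fastq 2.18. Genome build, annotation, strand setting and the handling of reads that map to several genes are not given in the sources used here, so near-identical and overlapping genes are uncertain. Per the labels' protocols, a low-input SMARTer cDNA kit and Nextera XT were used, and molecular identifiers are not mentioned. Counts of all 15 libraries entered 1 fit in edgeR 4.0.16 (R 4.3.3) with age as the only term, TMM scaling, the filterByExpr filter and robust quasi-likelihood F-tests of P10 minus P3. The Benjamini-Hochberg adjustment ran over the 14683 tested genes, with a threshold of 0.05. The test was also run on counts simulated with dispersions taken from the fit, a check that says nothing of how the real libraries vary.

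Named genes were the called genes with no overlap between ages, a mean of at least 20 CPM in the higher age and no predicted, pseudogene, ribosomal or mitochondrial symbol, taking the 15 largest rises and up to 10 largest falls. Called members of the 47 lists, 8 identity genes and, for lists with no call, at most 2 members by smallest p were added, and other list members named were chosen after their values were seen. The comparison, lists and members were chosen with earlier results of these data known, and some lists share members. Some list members are counted but not reported by name here. Promoter windows came from RefSeq. Alternatives tried were RLE and upper-quartile scaling, no filter, a filter of 5 CPM in 3 libraries, fits of 6 and of 12 libraries, a replicate block, DESeq2 1.42.0, limma 3.58.1 voom, thinning to the smallest total, a test against a log2 change of 1, no robust estimation, and leaving out each library.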

Additional observations from a re-analysis of the deposited data

How the results depend on the processing

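The 59 calls, 50 up and 9 down, became 116, 87 and 29 with no filter, 437, 250 and 187 with DESeq2, 109, 78 and 31 with the 12 libraries of 1 project, and 1, 1 and 0 in the test for a log2 change of at least 1. A filter of 5 CPM in 3 libraries gave 91 calls with 18 down, limma voom 94 with 27 down, and the 6 libraries alone 87 with 30 down. Of the 59 calls, 58 were kept with the filter of 5 CPM, 50 with voom and 40 with the 6 libraries alone. The share of rises among calls was 84.7%, and 57.2% with DESeq2, 65.5% with 6 libraries, 71.6% with 12 and 71.3% with voom. Leaving out 1 library gave 21 to 41 calls, 19 to 36 up and 2 to 13 down.

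The list counts were recomputed under the same alternatives after seeing the data. Immediate early genes, 8 called, gave 13 with no filter, 15 with DESeq2 and 0 in the test for a log2 change of at least 1, and 3 to 8 without single libraries. MHC class II genes, 3 called, gave 7 with DESeq2 and 0 in that test. Border-associated macrophage markers, 6 called, gave 11 with 6 libraries, 10 with 12 libraries, 11 with DESeq2 and 1 in that test, and as few as 3 without single libraries. Core macrophage genes, 3 called, gave 1 with RLE scaling, 1 with 6 libraries, 0 in that test and 0 to 2 without single libraries. DNA replication genes, 2 called, gave 4 with no filter, 7 with DESeq2, 4 with voom, 0 in that test and 0 to 1 without single libraries. CC and CXC chemokine genes, 2 called, gave 4 with no filter, 5 with DESeq2, 4 with voom and 1 in that test.

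With the replicate number as a block in 12 libraries, 76 genes were called, 57 up and 19 down, 43 of the 59 among them, and 4 DNA replication genes. The labels share only numbers: deviations of same-numbered P10 and P3 libraries correlated at -0.07, -0.00 and -0.01, and no library correlated best with its own number.

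Signs turned only for genes that had not passed. Ptprc came to 0.024 with upper-quartile scaling and ran from -0.25 to 0.093 without single libraries, Mrc1 from -0.24 to 0.053, Cx3cr1 from -0.33 to 0.027 and Klrb1c from 0 to 6.07. The Sp7 log2 change ran from -7.64 to 1.67, the Tubb3 log2 change from -4.23 to 0.86 and the Des log2 change from -6.21 to 0. Of the other settings of 103 named genes, 1543 kept direction and side of the threshold, 227 lost the call and 40 gained one. The cause of these shifts was not tested, beyond the smaller number of libraries in fits that left one out. Without TMM the median log2 change of tested genes was -0.09, against 0.01, 0.00 and 0.05 with TMM, RLE and upper-quartile scaling. Thinning every library to the smallest total gave 57 calls.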
